A study of Mus musculus with 9 samples.

Results

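The Egr, Id and E protein genes encode transcription regulators of T cells. Of these genes, 9 were followed here among the 22180 named genes on the arrays: Egr1, Egr2 and Egr3, Id1, Id2 and Id3, and Tcf3, Tcf4 and Tcf12. The genes were chosen by symbol, with the probe set of the highest mean intensity over all arrays taken for each gene. Each of the 9 had 1 probe set, so that the intensities decided nothing in this step. The genes were grouped with earlier results of these arrays known, among them the lower levels of Egr2 and Id3 in RORγt KO cells, so the number of members that changed is a description of this group and no independent support for it.

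The arrays measured RNA of mouse T cells cultured for 60 h under conditions that turn naive CD4+ cells into Th17 cells, the T helper cells that secrete IL-17. Naive cells (CD4+, CD25-, CD44 low, CD62L high) were sorted from spleen after removal of B cells. Stimulation in every culture was by plate-bound anti-CD3 and anti-CD28 at 10 µg/ml, with 1 ng/ml TGF-β1 and 30 µg/ml IL-6 (the unit is that of the labels), while anti-IL-4 and anti-IFN-γ at 2 µg/ml blocked other T helper fates. The 3 groups, with 3 arrays each, were wild type (WT), SRG3 cKO (SRG3-deficient) and RORγt KO (RORγt-deficient). SRG3, the product of Smarcc1, is a scaffold of Swi/Snf complexes, which remodel chromatin. RORγt is the nuclear receptor on which the Th17 fate depends. The Cre driver of the conditional knockout, the strain background and the age of the mice are not given in the sources used here. Whether the biological replicates of a group came from separate mice or cultures is not given either, and the p-values therefore reflect only how much these arrays varied.

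Egr proteins are zinc finger transcription factors that appear within minutes of T cell receptor signalling through the ERK pathway, and in developing thymocytes they raise Id3. Id proteins have a helix-loop-helix domain but no DNA-binding basic region, and they hold E proteins in dimers that cannot bind DNA. The E proteins, here the products of Tcf3, Tcf4 and Tcf12, are basic helix-loop-helix factors that bind E box sequences and direct many steps of lymphocyte development. BMP and TGF-β signals acting through SMAD proteins also control Id genes.

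In SRG3 cKO cells the targeted gene, Smarcc1, was down 3.15-fold against WT, with an adjusted p of 0.000207 in limma. It fell from 10.28 ± 0.14 to 8.63 ± 0.16 (SD, n = 3), which is still above the upper quartile of all values (8.23). The source of the remaining signal was not tested. The targeted gene was not checked for the RORγt KO labels. There the Th17 cytokine gene Il17a fell from 10.69 ± 0.54 in WT to 6.83 ± 0.18 (SD, n = 3) (limma adjusted p = 0.000143). The lower Il17a level lies under the median of all values, so no fold is given. Principal component 1, with 28.8% of the variance, placed WT array 1 at -1.4 and the other WT arrays at -10.5 and -11.8. SRG3 cKO array 1 (4.0, against -3.3 and -2.1) and RORγt KO array 3 (3.2, against 9.8 and 12) also stood apart from their groups. Results are therefore given with and without these arrays. Values are log2 probe set intensities as deposited, and differences between intensities of different genes are not interpreted. All 9 genes averaged above the median of all values on the arrays (7.13). Egr1, Egr2, Egr3, Id2, Tcf3 and Tcf12 also averaged above the upper quartile (8.23), while Id1, Id3 and Tcf4 lay between these marks, where a fold can be understated by background, which was not measured here.

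In RORγt KO cells 3 of the 9 genes fell against WT and none rose: Id3 and Id2, the inhibitors of E proteins, and the zinc finger gene Egr2. The changes were small, 1.37-fold for Id3, 1.25-fold for Id2 and 1.22-fold for Egr2. In SRG3 cKO cells none of the 9 passed the test. The E protein genes Tcf3, Tcf4 and Tcf12 did not pass the test in any comparison. Over all genes 1.04% changed in RORγt KO cells against WT, and 0.343% changed downward (adjusted p under 0.05 in limma). The groups did not overlap for the same 3 genes, all lower in RORγt KO cells, where 14.3% of all genes had groups that did not overlap in either direction. The median log2 change was -0.32 over the 3 Id genes, -0.22 over the 3 Egr genes and -0.05 over the 3 E protein genes, against -0.00 over all genes. In a culture measured in bulk, fewer cells of a type and less RNA per cell cannot be told apart.

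**Figure D1:**
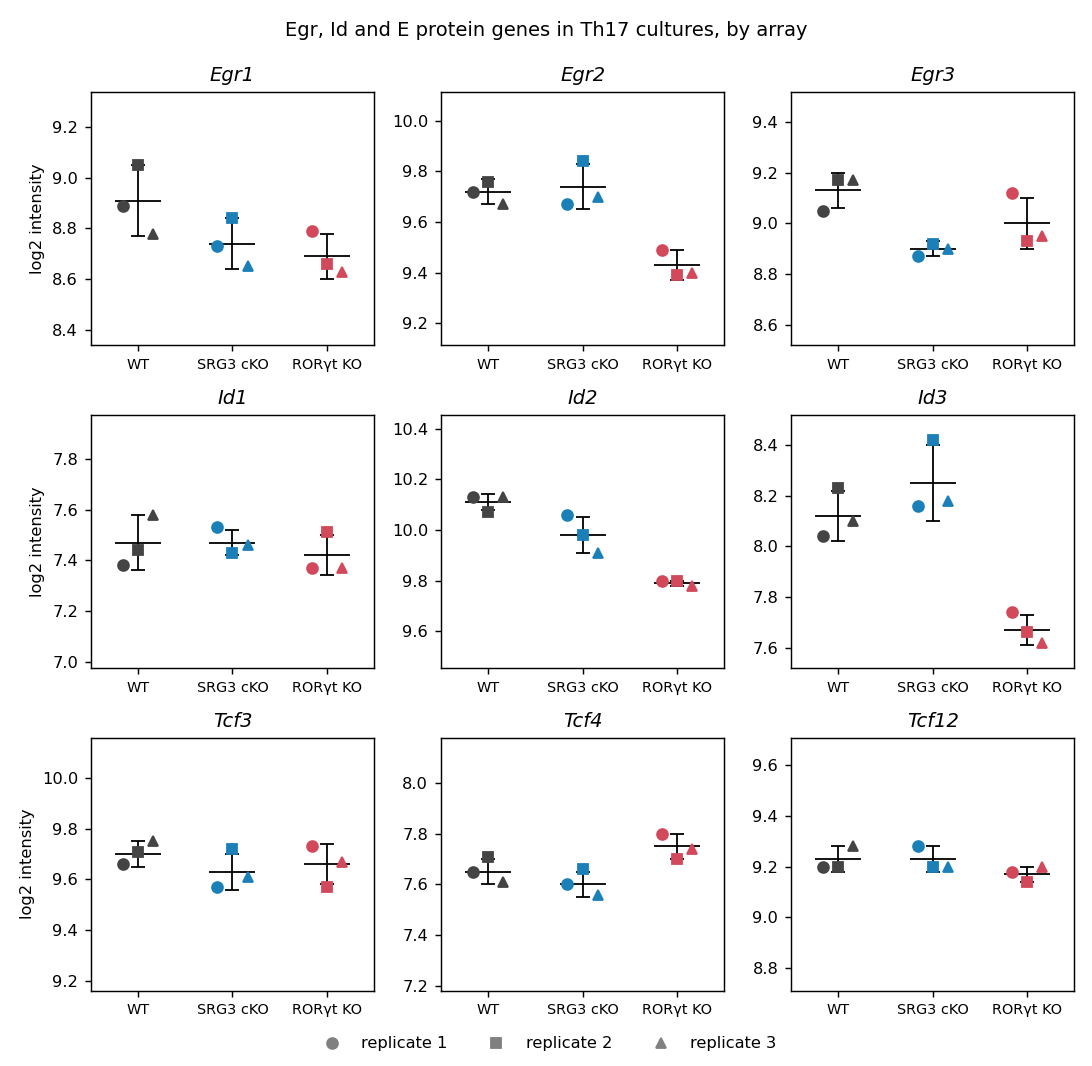
Log2 intensity (vertical axis, each panel spanning 1 log2 unit) of the 9 genes in WT, SRG3 cKO and RORγt KO Th17 cultures; symbols are single arrays, horizontal marks the mean and error bars the SD of 3 arrays. Egr2, Id2 and Id3 lie lower on the 3 RORγt KO arrays than on any WT or SRG3 cKO array, whereas Tcf3 and Tcf12 vary within 0.18 and 0.14 over all 9 arrays.

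Id3 encodes an inhibitor that rises with T cell receptor signalling in thymocytes and is characteristic of naive T cells. Its log2 level was 8.04, 8.23 and 8.10 on the WT arrays, 8.16, 8.42 and 8.18 on the SRG3 cKO arrays, and 7.74, 7.66 and 7.62 on the RORγt KO arrays. All 3 RORγt KO arrays were below all 6 others, and WT and SRG3 cKO arrays overlapped. Against WT, Id3 fell by 0.45 on the log2 scale in RORγt KO cells (SE 0.08, 95% interval -0.62 to -0.28, limma adjusted p = 0.0308). The call held without WT array 1 (adjusted p = 0.0371), SRG3 cKO array 1 (0.0417) or SRG3 cKO array 2 (0.0173). It was lost without WT array 2 (0.13) or 3 (0.103), SRG3 cKO array 3 (0.0538), or RORγt KO array 1 (0.0854), 2 (0.136) or 3 (0.0769), while the change stayed between -0.49 and -0.40 over all 21 alternatives.

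Id2 encodes the inhibitor that effector lymphocytes and innate lymphoid cells rely on. It stood at 10.13, 10.07 and 10.13 on the WT arrays, 10.06, 9.98 and 9.91 on the SRG3 cKO arrays, and 9.80, 9.80 and 9.78 on the RORγt KO arrays. The 3 groups formed 3 separate steps, with SRG3 cKO cells between the others and only 0.01 between the lowest WT array and the highest SRG3 cKO array. Id2 fell by 0.32 in RORγt KO cells against WT (SE 0.04, 95% interval -0.42 to -0.22, adjusted p = 0.014), with the smallest unadjusted p of the 9 genes in that comparison. It passed without WT array 1 (adjusted p = 0.0324), RORγt KO array 3 (0.0415) or any 1 of the SRG3 cKO arrays (0.0124 to 0.031). It did not pass without WT array 2 (0.0504) or 3 (0.0628), or without RORγt KO array 1 (0.0613) or 2 (0.06). Id1, the third inhibitor, was at 7.47 ± 0.11 (SD, n = 3) in WT, 7.47 ± 0.05 in SRG3 cKO and 7.42 ± 0.08 in RORγt KO cells, and its change of -0.05 in RORγt KO cells (-0.19 to 0.09) did not pass.

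The promoters of Id2 and Id3 are shown because these are the inhibitor genes that fell in RORγt KO cells. Each is the run of 250 bases before the transcription start in RefSeq (GRCm38.p6), 5′ to 3′ on the gene's strand, with any E box CAGCTG in capitals. That of Id2 is chr12:25096093-25096342 (minus strand) and that of Id3 chr4:136143572-136143821 (plus strand).
Id2: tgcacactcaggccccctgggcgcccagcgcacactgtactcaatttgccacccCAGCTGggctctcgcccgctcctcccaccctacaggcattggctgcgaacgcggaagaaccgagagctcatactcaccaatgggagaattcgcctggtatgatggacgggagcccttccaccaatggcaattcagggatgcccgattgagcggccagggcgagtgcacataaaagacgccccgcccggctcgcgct
Id3: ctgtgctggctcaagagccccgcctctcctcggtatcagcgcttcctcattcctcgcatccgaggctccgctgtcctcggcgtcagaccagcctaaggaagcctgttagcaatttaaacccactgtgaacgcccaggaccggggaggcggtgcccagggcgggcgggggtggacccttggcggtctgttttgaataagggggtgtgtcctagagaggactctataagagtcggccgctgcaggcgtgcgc

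The E box CAGCTG, the same on both strands, occurred once in the Id2 window, 196 bases before the start, and not in the Id3 window. It occurred in 13% of all 32851 promoter windows of this length. Neither window held CAGGTG, searched on both strands, which 17.2% of all windows hold. The Egr motif, searched on both strands as GCGTGGGCG or GCGGGGGCG, was in none of the 11 windows of the 5 members that the table lists (Egr2, Id2, Id3, Tcf3 and Tcf12), and is in 3.06% of all windows. These are matches of letters and not measurements of binding.

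Egr2 encodes the zinc finger factor that, with Egr3, is known for restraining activated T cells. Its log2 level was 9.72, 9.76 and 9.67 on the WT arrays, 9.67, 9.84 and 9.70 on the SRG3 cKO arrays, and 9.49, 9.39 and 9.40 on the RORγt KO arrays. The RORγt KO arrays were the 3 lowest, and WT and SRG3 cKO arrays overlapped. Egr2 fell by 0.29 in RORγt KO cells against WT (SE 0.05, 95% interval -0.41 to -0.17, adjusted p = 0.0436). When single arrays were omitted, only the fit without SRG3 cKO array 2 kept the call (0.0365), and with array weights it was lost narrowly (0.0508). It was lost without WT array 1 (0.0727), 2 (0.176) or 3 (0.102), SRG3 cKO array 1 (0.0588) or 3 (0.0782), or RORγt KO array 1 (0.0885), 2 (0.185) or 3 (0.0994), with changes between -0.32 and -0.27 over all 21 alternatives.

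Egr genes are known to be switched on by serum response factor, which binds the CArG box, and the promoter of Egr2 was searched for it after its sequence had been seen. RefSeq lists 5 starts of Egr2, and 4 of the 5 windows held a CArG box, which 1.47% of all windows hold. Because the sequence was seen first, these shares are a description and no support for enrichment. No window of Id2, Id3, Tcf3 or Tcf12 held a CArG box. In 3 of the 4 Egr2 windows it is the same box, printed here in capitals with 10 bases on each side (chr10:67537787-67537816, plus strand, first base 72 bases before the start at 67537869).
Egr2: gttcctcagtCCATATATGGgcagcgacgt

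The other Egr genes were lower in RORγt KO cells without passing the test. Egr1, the earliest responder of the family, was at 8.89, 9.05 and 8.78 on the WT arrays and 8.79, 8.66 and 8.63 on the RORγt KO arrays, which overlap, with a log2 change of -0.22 (95% interval -0.39 to -0.04, adjusted p = 0.286). Egr3 was at 9.05, 9.17 and 9.17 on the WT arrays and 9.12, 8.93 and 8.95 on the RORγt KO arrays, also with overlap, at -0.13 (-0.26 to 0.00, adjusted p = 0.399). The E protein genes, whose products the Id proteins inhibit, stayed close to WT. Tcf3 was at -0.05 (-0.17 to 0.07), Tcf12 at -0.05 (-0.15 to 0.04) and Tcf4 at 0.09 (-0.01 to 0.19) in RORγt KO cells against WT. The lower bounds of all 3 intervals lie above the changes measured for Id2 and Id3, which does not show that the E protein genes were unchanged.

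**Figure D2:**
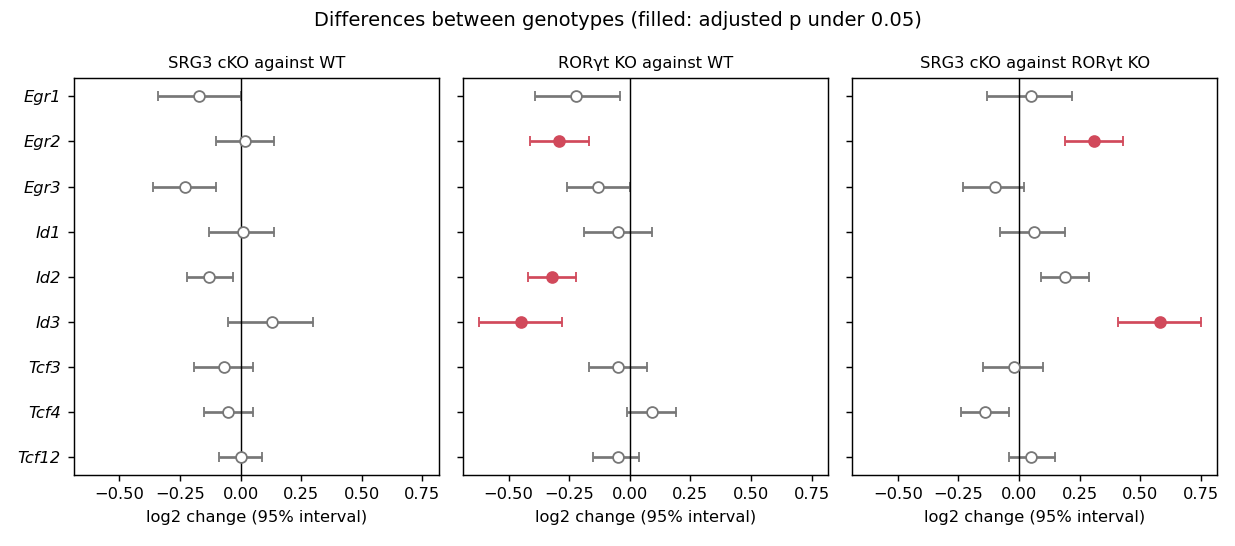
Log2 change of each gene (horizontal axis; bars are 95% intervals of the limma fit, n = 3 arrays per group) in the 3 comparisons; filled red points have an adjusted p under 0.05. Id3, Id2 and Egr2 are filled in RORγt KO against WT, no gene is filled in SRG3 cKO against WT, and Egr2 and Id3 are filled on the positive side in SRG3 cKO against RORγt KO.

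In SRG3 cKO cells none of the 9 genes passed the limma test against WT, where 0.523% of all genes did. At an unadjusted p under 0.05 there were 2, Egr3 and Id2, against 11.2% of all genes, and the same pair had groups that did not overlap, against 13.6% of all genes. Against that background the pair is not read as a result about these genes. Egr3, the partner of Egr2, was at 8.87, 8.92 and 8.90 on the SRG3 cKO arrays, all below the 3 WT arrays, with a log2 change of -0.23 (SE 0.06, 95% interval -0.36 to -0.10, adjusted p = 0.153). Id2 was at -0.13 (-0.22 to -0.03, adjusted p = 0.327). Egr1 was at -0.17 (-0.34 to 0.00), and at -0.10 without WT array 2. Id3 was at 0.13 (-0.05 to 0.30), and at 0.04 without SRG3 cKO array 2. Egr2 at 0.02 (-0.10 to 0.14), Id1 at 0.01 (-0.13 to 0.14), Tcf3 at -0.07 (-0.19 to 0.05), Tcf4 at -0.05 (-0.15 to 0.05) and Tcf12 at -0.00 (-0.09 to 0.09) had intervals that include 0. Arrays of SRG3 cKO and WT with the same number deviated together, but the values above come from the fit without pairing. With the replicate number as a block the count of members that passed was still 0. The limma adjusted p was then 0.165 for Egr3 and 0.26 for Id2.

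The comparison of the knockouts with each other tests whether they differ in these genes. Id3 was 1.49-fold higher in SRG3 cKO than in RORγt KO cells (log2 difference 0.58, SE 0.08, 95% interval 0.41 to 0.75, adjusted p = 0.00701), and Egr2 was 1.24-fold higher (0.31, SE 0.05, 0.19 to 0.43, adjusted p = 0.0267). These were 2 of the 9 genes, both higher in SRG3 cKO cells, where 1.28% of all genes differed and 0.595% were higher. Groups did not overlap for 5 of the 9, against 14.6% of all genes: Id3, Egr2 and Id2 were higher and Egr3 and Tcf4 lower in SRG3 cKO cells. Id2 (0.19, 95% interval 0.09 to 0.29, adjusted p = 0.0865), Tcf4 (-0.14, -0.24 to -0.04, adjusted p = 0.236) and Egr3 (-0.10, -0.23 to 0.02, adjusted p = 0.562) did not pass. The Id3 difference passed whichever array was left out (adjusted p at most 0.0372). That of Egr2 passed without any 1 WT array or SRG3 cKO array 1 (0.0409 to 0.0481). It was lost without SRG3 cKO array 2 (0.0796) or 3 (0.0697), or RORγt KO array 1 (0.0515), 2 (0.113) or 3 (0.0935).

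**Figure D3:**
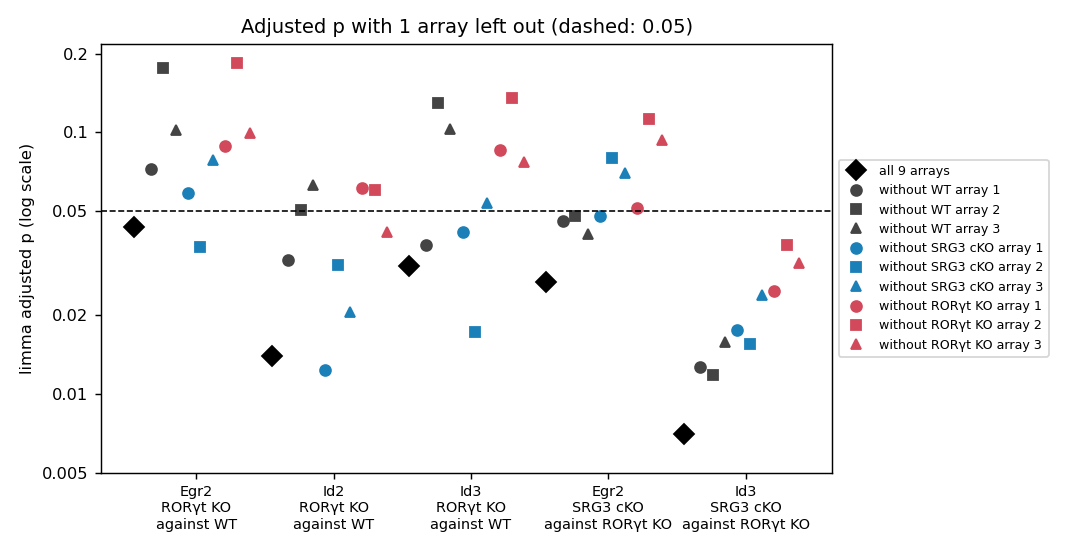
Limma adjusted p (vertical axis, log scale) of the 5 differences that passed with all 9 arrays (black diamonds) and with each array left out in turn (coloured symbols); the dashed line is 0.05. Id3 in SRG3 cKO against RORγt KO stays below the line in all 9 fits, with 0.0372 as the highest value, and Egr2 in RORγt KO against WT in 1 of 9.

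By genotype, the levels of Id3 and Egr2 ran from RORγt KO (7.67 ± 0.06 and 9.43 ± 0.06, SD, n = 3) through WT (8.12 ± 0.10 and 9.72 ± 0.05) to SRG3 cKO (8.25 ± 0.15 and 9.74 ± 0.09), and the last steps, between WT and SRG3 cKO, were within the spread of the arrays. Id2 ran from RORγt KO (9.79 ± 0.01) through SRG3 cKO (9.98 ± 0.07) to WT (10.11 ± 0.03), with neither the first nor the second step past the test and only the span from end to end called. Egr3 was lowest in SRG3 cKO (8.90 ± 0.03), followed by RORγt KO (8.93 to 9.12) and WT (9.13 ± 0.07). Egr1 ran from RORγt KO (8.69 ± 0.09) through SRG3 cKO (8.74 ± 0.10) to WT (8.91 ± 0.14), and no step of either gene passed. Tcf4 had the reverse order of Id3, from SRG3 cKO (7.60 ± 0.05) through WT (7.65 ± 0.05) to RORγt KO (7.75 ± 0.05), without a call. Tcf3 (9.63 ± 0.07 in SRG3 cKO, 9.66 ± 0.08 in RORγt KO, 9.70 ± 0.05 in WT) and Tcf12 (9.17 ± 0.03 in RORγt KO, 9.23 ± 0.05 in both others) did not differ beyond the spread. Over all 9 arrays the range was widest for Id3, at 0.80 or 1.74-fold, and narrowest for Tcf12, at 0.14 or 1.1-fold.

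Egr2 and Id3 had the highest correlation over the 9 arrays of all pairs of members. Across the 9 arrays their Pearson correlation was 0.975, a description that includes the difference between genotypes, and after subtracting each group's mean it was 0.88. Within groups high values were not particular to this pair. Pairs with Egr1 or Tcf4, which passed no test, were at 0.934 for Egr1 and Tcf4, 0.879 for Egr2 and Tcf4, 0.84 for Egr1 and Egr2, 0.807 for Egr1 and Id3, and 0.788 for Id3 and Tcf4. Array 2 was the highest for both genes in the WT and in the SRG3 cKO group, and array 1 in the RORγt KO group. Id2 and Id3, which were both lower in RORγt KO cells, correlated at 0.714 across the 9 arrays but at -0.269 within groups. The same arrays supply both values of each pair, so intensity shifts of a whole array enter these figures.

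**Figure D4:**
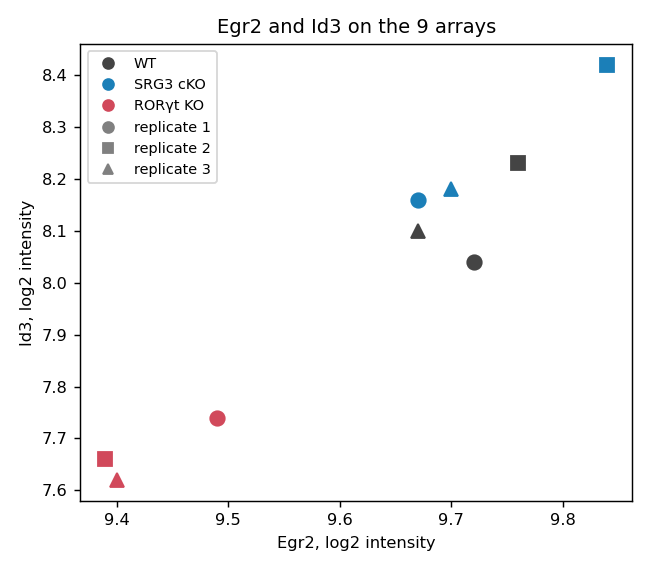
Log2 intensity of Egr2 (horizontal axis) and Id3 (vertical axis) on the 9 arrays, coloured by genotype and shaped by replicate number. The 3 RORγt KO arrays lie at the lower left, with Id3 at 7.62 to 7.74, and SRG3 cKO array 2 at the upper right with 9.84 for Egr2 and 8.42 for Id3.

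Among the 12168 genes with a mean above the median of all values, the 3 most like Egr2 over the 9 arrays were Id3 (Pearson r = 0.975), Tab2 (0.972) and Calcrl (0.961). Those most like Id3 were Ccnd2, a cyclin gene (0.983), Calcrl, a receptor gene (0.983), and Egr2 (0.975). The genes most like Id2 were the Th17 cytokine gene Il17f (0.956), Galnt3 (0.953) and Itga3 (0.943). Egr1 was most like Pde7a (0.974), Egr3 most like Clptm1 (0.937), Id1 most like Shb (0.92), Tcf3 most like Rps23 (0.908), Tcf4 most like Olfr522 (0.947) and Tcf12 most like Tmco3 (0.962). With 9 arrays in 3 groups and so many genes compared, each member had a gene at 0.908 or above, and these values serve as descriptions only.

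Few genes of the wider family passed, and few of all genes did. The shares of all genes were 0.523% in SRG3 cKO and 1.04% in RORγt KO cells against WT, and 1.28% between the knockouts. Against that background the counts that follow are not read as a result about the family. Of 28 Egr relatives and immediate early genes (among them Egr4, the NAB corepressor genes, Fos, Jun, Nr4a and Dusp genes) 1 rose in RORγt KO cells, Dusp6, which encodes a phosphatase that turns off ERK (log2 change 0.59, SE 0.10, adjusted p = 0.0287), where 1.04% of all genes changed. With the mean of all its probe sets Dusp6 was at 0.28 and did not pass. None passed in SRG3 cKO cells, with median changes of 0.03 and 0.09 in the respective comparisons. Between the knockouts Elk3, a partner of serum response factor, was lower in SRG3 cKO cells (-0.40, SE 0.08, adjusted p = 0.0411), where 1.28% of all genes differed. Dusp6 lost the call in 7 of 9 fits that each omitted an array and Elk3 in 8. None of 18 basic helix-loop-helix relatives and partners of E and Id proteins, such as Id4, Lyl1, Ldb1 and Bhlhe40, passed in any comparison, nor did any of 23 BMP, TGF-β receptor and SMAD genes.

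Of 17 genes tied to Egr2 and Egr3 in T cells, 4 rose and 1 fell in RORγt KO cells against WT, where 1.04% of all genes changed, and the median log2 change was 0.08. The list was chosen with earlier results of these data known, so the count is a description and no support for a link to Egr2. Cblb, a ubiquitin ligase gene that restrains T cell activation, stood at 10.85, 10.60 and 10.42 on the WT arrays and 11.37, 11.54 and 11.15 on the RORγt KO arrays, and rose by 0.73 (SE 0.12, adjusted p = 0.0267). The inhibitory receptor gene Lag3 rose by 0.41 (SE 0.07, adjusted p = 0.0343), Tnfrsf9, for a costimulatory receptor, by 0.80 (adjusted p = 0.0273) and Socs3, for a cytokine signalling inhibitor, by 0.54 (adjusted p = 0.0317). Crtam, an adhesion receptor gene of activated T cells, fell by 0.62 (SE 0.10, adjusted p = 0.025). The called genes moved in both directions, and a link to the lower Egr2 level was not tested. Each lost its call in at least 5 of 9 fits that each omitted an array: Crtam in 5, Cblb and Tnfrsf9 in 6, Lag3 and Socs3 in 7. Averaging the probe sets of a gene also ended the call of Socs3. None of the 17 passed in SRG3 cKO cells against WT, where 0.523% of all genes did. There Tnfrsf9 (0.66, adjusted p = 0.0776), Cblb (0.39, adjusted p = 0.266) and Crtam (-0.37, adjusted p = 0.196) had the same sign as in RORγt KO cells, with groups that did not overlap, and none of these genes passed between the knockouts. Of all genes 13.6% did not overlap in SRG3 cKO against WT. The genes without overlap were not counted over the whole list, so this is not read as a result about it. Changes of both knockouts against WT also rest on the same WT arrays. Between the knockouts, where 1.28% of all genes differed, Lag3 was lower (-0.44, adjusted p = 0.0182) and Il2, the T cell growth factor gene, higher (0.81, SE 0.15, adjusted p = 0.0336) in SRG3 cKO cells, and these calls were lost in 5 and 6 of those fits.

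Of 17 measured genes tied to E proteins in lymphocytes (20 listed), 2 rose in RORγt KO cells and none fell, where 1.04% of all genes changed, with a median log2 change of 0.06. This list, too, was chosen with earlier results known, and its count is a description only. Il7r, the IL-7 receptor gene, stood at 9.54, 9.20 and 9.34 on the WT arrays, 9.28, 9.26 and 9.24 on the SRG3 cKO arrays and 10.35, 10.42 and 10.16 on the RORγt KO arrays. It rose 1.94-fold in RORγt KO cells (log2 change 0.95, SE 0.09, adjusted p = 0.00135) and passed whichever array was left out. Ccr7, the lymph node homing receptor gene, rose by 0.66 (SE 0.13, adjusted p = 0.05 as rounded, just under the threshold), and lost the call in 8 of 9 fits that each omitted an array and with the mean of all its probe sets. None of the 17 passed in SRG3 cKO cells against WT, where 0.523% of all genes did. Il7r was 2.07-fold lower in SRG3 cKO than in RORγt KO cells (-1.05, SE 0.09, limma adjusted p = 0.000679), where 1.28% of all genes differed.

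Markers of other cells were followed beside these genes. All 7 measured T cell markers averaged above the upper quartile of all values in each group, and none changed in any comparison. Of all genes 0.523% changed in SRG3 cKO and 1.04% in RORγt KO cells against WT, and 1.28% differed between the knockouts. The 5 Th17 markers averaged 10.05 to 10.34 on the WT arrays, 9.38 to 9.55 on the SRG3 cKO arrays and 8.01 to 8.21 on the RORγt KO arrays. All 5 fell in RORγt KO cells against WT and 3 (Il17a, Il17f and Il23r) in SRG3 cKO cells. All 5 were called higher in SRG3 cKO than in RORγt KO cells. Of the 7 measured B cell markers none averaged above the upper quartile in any group. Only 1 lay below the median in WT, 2 in SRG3 cKO and 1 in RORγt KO cells, and the others lay between these marks. Their summed intensity was 1093 to 1396 in WT, 1203 to 1237 in SRG3 cKO and 1254 to 1357 in RORγt KO arrays. The 7 myeloid markers had 6 below the median of all values in each group, with sums of 839 to 850, 846 to 875 and 848 to 907. Of 6 markers of plasmacytoid dendritic cells, which depend on Tcf4, 4 lay below the median and 1, Bst2, above the upper quartile in each group, with sums of 1002 to 1284, 1038 to 1225 and 1108 to 1183. Of the 6 measured markers of CD8 T cells, NK cells or γδ T cells 1 rose in RORγt KO cells, Klrd1, where 1.04% of all genes changed. Klrd1 was also the 1 marker of this list called between the knockouts, lower in SRG3 cKO cells, where 1.28% of all genes differed. In each group 4 of the 6 lay below the median and 1, Cd8b1, above the upper quartile. The sums were 900 to 947, 909 to 935 and 954 to 1003, highest in RORγt KO cells. Background, which was not measured, is part of every such sum, and no sum of any list is read as an amount of cells. The part of the listed markers, the Th17 markers included, in the lower Egr2, Id2 and Id3 levels was not tested.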

How the data were processed

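RNA of 9 Th17 cultures, 3 per genotype, was measured on GeneChip arrays. The values are log2 probe set intensities as the authors deposited them; the steps behind them (background correction, summarization, normalization) are not given in the sources used here. The medians of the arrays lay between 7.12 and 7.14. Raw scans were not analysed here. Of 41345 probe sets, 23521 had 1 gene symbol, 1814 several and 16010 none; symbols were updated by gene ID (23328 matched) with RefSeq GRCm38.p6, and each of 22180 genes was represented by its brightest probe set on average.

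All 9 arrays were fitted together with limma 3.58.1 in R 4.3.3 (lmFit, eBayes), with Benjamini-Hochberg adjustment over all genes and a threshold of 0.05; "rose", "fell" and "changed" mean past it. The fit was also run on simulated data with independent noise for each gene. These hold no shifts shared by arrays, so no support for the calls is drawn from them. Same-numbered arrays had deviations from the group means that correlated at 0.287, 0.186 and 0.116 for SRG3 cKO and WT, which points to pairing. For RORγt KO and WT they correlated at 0.215, -0.00527 and 0.186, and for the knockouts at 0.223, -0.00544 and 0.137. The main fit modelled no pairing in any comparison. Intervals and p-values are thus unpaired unless the replicate block, used only as an alternative, is named. Alternatives were normalization, centring, filters on dim genes, probe set choice, variance models, array weights, arrays in the fit, the replicate block and leaving out each array.

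The members and lists were chosen with earlier results of these data known. The CArG box search was added after the promoter sequences had been seen. Named were all members, Smarcc1, Il17a and Il17f, called genes of each list (at most 4 per comparison, smallest p first) and the genes most correlated with each member. Lag3 in RORγt KO against WT, the last of 5, falls outside that rule in that comparison. Klrd1, a cell type marker, falls outside it in every comparison. Each was named after its values were seen. Array number limits the precision.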

Additional observations from a re-analysis of the deposited data

Results flagged for a closer look

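Both knockouts were compared with the same WT arrays, and for a pair of genes the direct comparison showed that the knockouts differed. Id3 was higher by 0.58 on the log2 scale in SRG3 cKO than in RORγt KO cells (limma adjusted p = 0.00701), with all 3 SRG3 cKO arrays above all 3 RORγt KO arrays. Egr2 was higher by 0.31 (adjusted p = 0.0267), again without overlap. Against WT, Id3 was at 0.13 in SRG3 cKO (0.04 without array 2 of that group) and -0.45 in RORγt KO cells, and Egr2 at 0.02 and -0.29.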

How the results depend on the processing

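The count of the 9 genes that passed was 0 in SRG3 cKO against WT under all 21 alternatives (lowest adjusted p 0.081, for Egr3), 3 in RORγt KO against WT and 2 between the knockouts. With the replicate block in the fit of all 9 arrays the counts were 0, 3 and 2, and with array weights 0, 2 and 2, as Egr2 in RORγt KO against WT no longer passed (adjusted p = 0.0508). With all 41345 probe sets tested, which lengthens the adjustment, the last 2 counts were 1 and 1, and in fits of only the 6 arrays compared they were 1 and 1, or 0 and 0 with the block. With 1 array left out they ranged from 0 to 3 and from 1 to 2, and the share of all genes called from 0.203% to 1.45% and from 0.622% to 1.18%. With only genes above the median Id2 passed between the knockouts (adjusted p = 0.0451). Id3 between the knockouts passed in 20 of 21 alternatives (0.0532 in the 6 arrays with the block). No called change of a member turned its sign. Changes near 0, none of them called, did. In SRG3 cKO against WT these were Egr2 without WT array 3 (-0.0047) or SRG3 cKO array 2 (-0.03), Id1 with array weights (-0.01) and without WT array 1 (-0.04) or 2 (-0.01) or SRG3 cKO array 1 (-0.02), and Tcf12 with centred arrays (0.00023) and without WT array 3 (0.03) or SRG3 cKO array 2 (0.01) or 3 (0.01). In RORγt KO against WT it was Id1 without WT array 3 (0.01). Between the knockouts they were Egr1 without SRG3 cKO array 2 (-0.0046) and Tcf3 without SRG3 cKO array 1 (0.004) or RORγt KO array 1 (0.01). Over the fits with 1 array left out these genes spanned, in SRG3 cKO against WT, -0.03 to 0.05 for Egr2, -0.04 to 0.06 for Id1 and -0.03 to 0.03 for Tcf12. In RORγt KO against WT the span was -0.10 to 0.01 for Id1. Between the knockouts it was -0.0046 to 0.10 for Egr1 and -0.07 to 0.01 for Tcf3. The cause of the lost calls was not tested. Background was not measured, so dim genes (Id1, Id3, Tcf4) may show understated changes.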
